A study of Homo sapiens with 4 samples.

Results

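The HA ChIP library labelled WT, compared with its own input by the authors' peak caller, gave 6525 peaks on chromosomes 1 to 22 out of 6874 in its list and of 19536 in both lists of the series. All of its peaks on these chromosomes were taken, and the 349 on other chromosomes and unplaced contigs were left out. The cells were K562, an established human line from a chronic myeloid leukemia in blast crisis that keeps erythroid features. They overexpressed either HA-PHF6 or the HA tag alone, were grown with fetal bovine serum and received no treatment. Chromatin was cross-linked, sheared and precipitated with an antibody to the HA tag, and the study asked where HA-PHF6 binds. The title of the library does not settle whether it came from HA-PHF6 cells or from the control cells. The series has 4 libraries, and this one has no replicate, so that no value below can be set against a spread between replicates and no difference was tested. A peak list holds no expression values, and the markers of K562 cells could not be checked with it. The intervals given are 95% intervals that cover counting error only.

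PHF6 is a chromatin protein with zinc fingers of the PHD type that is found in the nucleus and the nucleolus and is mutated in T-cell acute lymphoblastic leukemia. In a ChIP experiment the antibody enriches the fragments bound by its target, and the input, which is sheared chromatin without antibody, shows how many fragments each place gives without enrichment. Repeated DNA around centromeres and in the ribosomal DNA arrays is known to gather reads in both, because the reference genome holds fewer copies of it than the cell does.

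The list is described by 3 groups of peaks, which do not cover all of it. The strongest by number of tags had mostly no annotated gene and lay in a few places, several of them within large gene-free stretches. Their input was high as well, and the median fold enrichment of the 50 highest was 1.61. Of the 36 strongest by enrichment, 21 had no gene either, and 15 lay over a small set of genes that included the adult globins HBA2, HBA1 and HBB, the 7SL RNAs RN7SL1 and RN7SL2, the 7SK RNA RN7SK, the ribosomal RNA unit, and the RNAs of RNase P and RNase MRP. Most peaks had 6 to 10 tags, and those below rank 1000 by pileup were spread over genes and gene-free DNA nearly as the bases are. Between these groups, 59.3% of the peaks at ranks 201 to 500 and 45.0% of those at ranks 501 to 1000 were gene-free. The gene-free share of bases was 44.1%, with gaps in the reference counted.

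The sequences below belong to the only peak of the 100 highest that had a short RNA gene at its summit, and to promoters in which a summit lay. They are from RefSeq, build GRCh38.p14, and are written 5′ to 3′. MIR8078, a microRNA gene within the pseudogene ROCK1P1, lies at chr18:112256-112339 on the minus strand, and the peak covered the whole hairpin, with the summit at base 28 of its 84. The capitals mark the mature microRNA in the hairpin, and the seed, bases 2 to 8, in the mature sequence.

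MIR8078 hairpin: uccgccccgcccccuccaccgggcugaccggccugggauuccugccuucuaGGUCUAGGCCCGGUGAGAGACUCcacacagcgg

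hsa-miR-8078: gGUCUAGGcccggugagagacuc

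AHCYL2, a relative of the enzyme that cleaves S-adenosylhomocysteine, had the promoter peak with the most tags and the highest fold enrichment, 17 tags and 3.91. UGT3A2, a glycosyltransferase, had the protein-coding promoter peak with the next highest fold enrichment, 3.41, on 9 tags. The 250 bases before each start are shown, at chr7:129224780-129225029 on the plus strand for AHCYL2 and at chr5:36066883-36067132 on the minus strand for UGT3A2. The capitals mark the bases inside the peak, 171 for AHCYL2 and 170 for UGT3A2.

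AHCYL2: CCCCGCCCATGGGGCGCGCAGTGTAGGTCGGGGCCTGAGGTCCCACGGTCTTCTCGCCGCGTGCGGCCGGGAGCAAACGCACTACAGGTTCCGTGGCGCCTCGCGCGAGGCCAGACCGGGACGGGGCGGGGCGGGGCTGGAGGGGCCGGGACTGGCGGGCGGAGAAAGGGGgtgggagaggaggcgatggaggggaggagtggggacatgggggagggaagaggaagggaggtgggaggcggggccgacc

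UGT3A2: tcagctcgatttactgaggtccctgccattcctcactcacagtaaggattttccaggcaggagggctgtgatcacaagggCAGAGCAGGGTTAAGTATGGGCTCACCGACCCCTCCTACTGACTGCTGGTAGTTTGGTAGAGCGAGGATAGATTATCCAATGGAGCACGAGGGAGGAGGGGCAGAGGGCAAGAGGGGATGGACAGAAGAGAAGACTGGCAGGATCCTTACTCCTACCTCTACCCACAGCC

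The pileup, which counts the ChIP tags that cover the summit after extension, was low for most peaks. It ranged from 6 to 465 tags with a median of 8 (interval 8 to 8). Of the 6525 peaks, 3088 (47.3%) had 6 or 7 tags and 5748 (88.1%) had 6 to 10. There were 485 peaks of 11 to 20 tags, 125 of 21 to 50, 55 of 51 to 100, 62 of 101 to 200, 41 of 201 to 400 and 9 above 400. The counts thus fell steeply from 7 to 20 tags, and a long tail above held few peaks. With 22257947 ChIP tags kept after removal of duplicates, the mean over the genome was 1.68 tags at any place. One tag per position and strand and an extension of 234 bp allow no more than 468 tags at a place, and the peaks above 400 tags lay close to that ceiling.

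**Figure D1:**
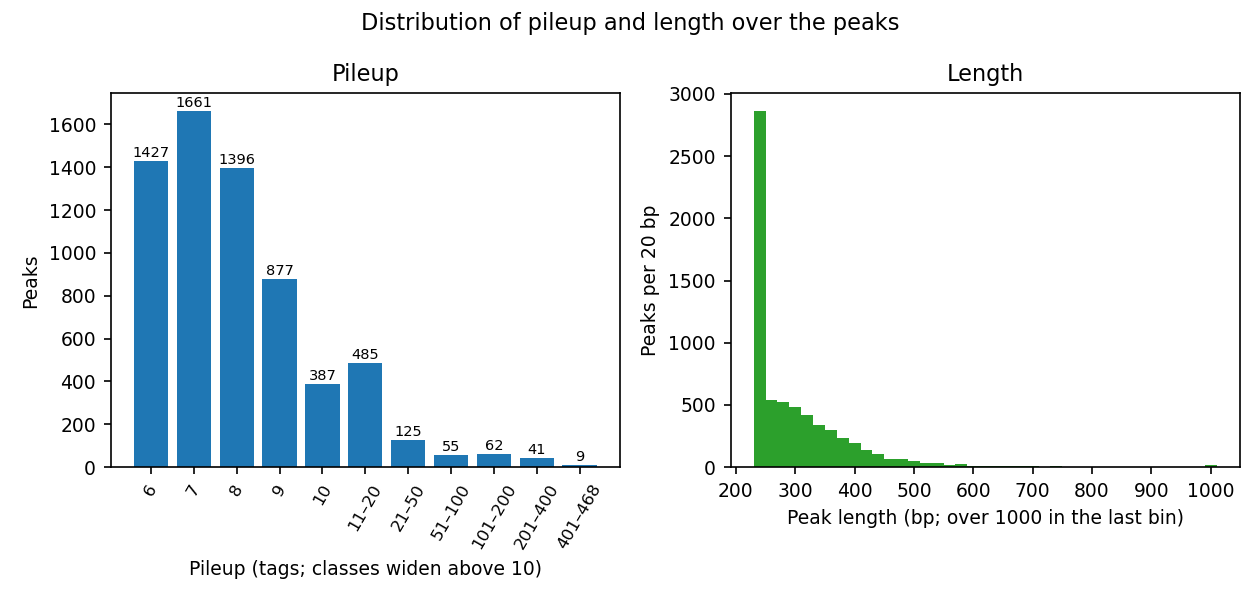
Number of peaks by pileup in tags (left, classes widening above 10 tags) and by peak length in bp (right, bins of 20 bp, with the peaks over 1000 bp in the last bin), over the 6525 peaks on chromosomes 1 to 22. Most peaks have 6 to 10 tags, and the first length bin holds the 2372 peaks of exactly 234 bp.

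Many peaks had the shortest length that the call allowed. The shortest peaks were 234 bp, the length to which the authors extended each tag, and 2372 peaks (36.4%, 35.2% to 37.5%) had exactly that length. The median was 264 bp (261 to 267), 90% were no longer than 407 bp, 227 reached 500 bp and 18 reached 1000 bp. These are counts of summits, so a region with several summits entered once for each, and fewer separate regions were that long. With 1 entry per region the median was 263 bp. The median length was 276 bp at 6 tags, 256 bp at 7, 252 bp at 8 and 259 bp at 10, so that peaks with more tags were not longer within the bulk of the list. Toward the highest pileups the peaks were longer, though not steadily. The median was 259 bp below rank 1000 by pileup, 263 bp at ranks 501 to 1000 and 295 bp at ranks 201 to 500. It was 387 bp at ranks 101 to 200, 364 bp at ranks 51 to 100 and 432 bp at ranks 1 to 50. Across the 6525 peaks of this library the Spearman correlation of pileup with length was 0.07. The longest, of 2430 bp, lay in TTC34 on chromosome 1 and held 5 summits. Regions with several summits were rare, 36 of 6483 (0.555%).

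The fold enrichment is the pileup at the summit over the caller's background, with 1 added to each. The background was taken from the local input, but was never below the mean of 1.68 ChIP tags over the genome. The fold enrichment had a median of 2.85 and ranged from 1.14 to 22.5. The caller's q-value, its p-value adjusted for multiple testing, was 1 for 59.4% of the peaks. Only 109 peaks (1.67%) had a −log10 q of at least 5, and 36 (0.552%) had a fold enrichment of at least 5. Both limits were passed by 30 peaks. For 23.6% of the peaks the background at the summit was at the mean of the genome, so that the number of tags alone set the fold enrichment. The background was 5 tags or more for 389 peaks (5.96%). Of these 389 peaks, 279 (71.7%) had no gene at the summit, and their median fold enrichment was 2.05. Among the 6136 peaks with a lower background, 43.8% had no gene, and the highest pileup was 101 tags, in HBB.

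By gene class, the summits were spread nearly as the bases are when gaps in the reference are counted as bases. A gene was annotated at 3557 summits, 54.5% (53.3% to 55.7%), while annotated genes cover 55.9% of the bases up to the last gene or peak of each chromosome. Gaps in the reference were not taken out of these bases, and no peak can fall in them. How far they lower the shares of bases in genes was not measured. Protein-coding genes had 2470 summits, 37.9% (36.7% to 39.0%) against 39.6% of bases. Long noncoding RNA (lncRNA) genes had 912, 14.0% (13.2% to 14.8%) against 14.6%, and pseudogenes had 130, 1.99% against 1.60%. The 22 summits in other RNA genes, such as transfer, ribosomal, small nuclear and micro-RNA genes, made up 0.337% of the summits on 0.0387% of the bases. The immunoglobulin and T-cell receptor loci with their segments had 23. Where several genes overlap, the shortest gave the class.

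The gene classes changed from the highest pileup down. Of the 100 peaks with the most tags, 91 had no gene at the summit (91.0%, 83.8% to 95.2%). This held for 77 of the peaks ranked 101 to 200, for 178 of the 300 ranked 201 to 500 (59.3%), for 225 of the 500 ranked 501 to 1000 (45.0%) and for 2397 of the 5525 below them (43.4%). Protein-coding genes had 1 of the first 100 summits, 9 of the next 100, 78 of the 300 after that (26.0%), 186 of the following 500 (37.2%) and 2196 of the remainder (39.7%). The other RNA genes were most frequent between these ends, with 9 of the 100 summits ranked 101 to 200 and 3 of the 5525 below rank 1000. The median background fell along the same order, from 172 tags for ranks 1 to 50 to 25.4 for ranks 101 to 200 and 1.81 below rank 1000. The part of the background in the order of the classes was not tested.

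**Figure D2:**
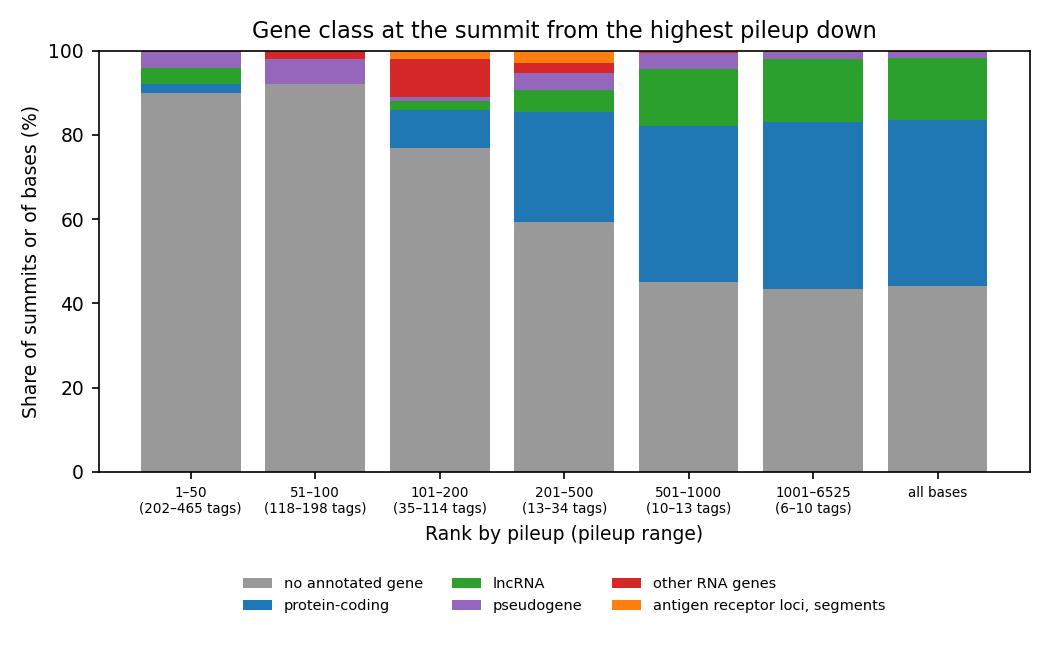
Share of summits (%) in each gene class by rank of pileup, with the range of tags under each bar, and the share of all bases in the last bar. The gene-free share falls from 90.0% in the first bar to 43.4% in the lowest ranks, where the bar resembles that of the bases.

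The 25 peaks with the most tags had 311 to 465 tags, and 24 of them had no gene at the summit. The highest was at chr1:125179879-125180620, with 465 tags over a background of 369 and a fold enrichment of 1.26. The next 3 lay on chromosome 16 between 46389687 and 46395072, with 460, 459 and 457 tags over backgrounds of 402, 399 and 373. At all 9 peaks above 400 tags the fold enrichment was 1.14 to 1.48. The input is capped in the same way, at 424 tags after scaling, and with both at their ceilings the fold enrichment could only be 1.10. The backgrounds of these 9 peaks were 294 to 402 tags, below that ceiling. The cap limits how well these values can measure the enrichment there, and how far it lowered them was not tested. The first 100 peaks fell into 16 places on 9 chromosomes, and 10 of these places held 94 of them. The places with most peaks were chr1:143185057-143267427 with 22 peaks, chr16:34571666-34595682 with 13, chr5:49601435-49666852 with 11, chr16:46386300-46401157 with 11 and chr4:49097218-49154629 with 10. None of the peaks in these 5 places had a gene at its summit. Those on chromosome 1 lay within a stretch of 21728 kb without annotated genes, which holds the centromere. The lowest background among the first 100 was 44.4 tags, and their highest fold enrichment was 3.18.

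The named genes among the first 100 peaks were few and repeated. LOC112268408, an lncRNA gene near the end of chromosome 18, held 5 of these peaks, with 364, 309, 274, 162 and 127 tags over backgrounds of 178, 164, 159, 80.6 and 44.4. The pseudogene ROCK1P1, which overlaps it, shared 3 of them, among them the peak over MIR8078. DUX4, a transcription factor gene of the D4Z4 repeat at the end of chromosome 4, had 295 tags over a background of 140. Its pseudogene DUX4L26 on chromosome 3 had 290 over 134, and the fold enrichments of these 2 were 2.11 and 2.15. CDC27P10, a pseudogene of a cell cycle gene on chromosome 21, had summits of 158 and 145 tags. DUX4 and DUX4L26 are related copies. Only reads that mapped to a single place were kept, so reads that fit both alike would be lost, and the tags of both genes are uncertain. At all of these summits the background was 44.4 tags or more.

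**Figure D3:**
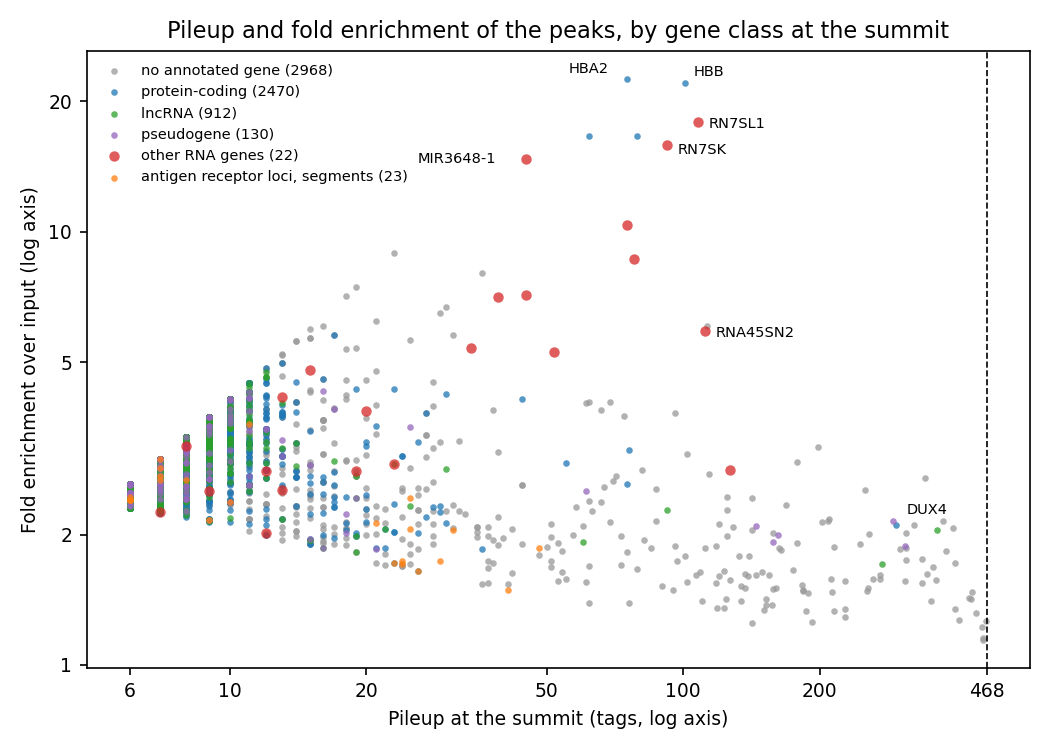
Pileup at the summit in tags against fold enrichment over input, both on log axes, with 1 point per peak, coloured by gene class, and a dashed line at the ceiling of 468 tags. The points toward the ceiling are mostly gene-free with a fold enrichment under 2, while the points above 10 are the globin, 7SL and 7SK genes and MIR3648-1 with 45 to 108 tags.

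Among peaks by fold enrichment, globin and small RNA genes came first. Of the 36 peaks at 5 or more, 5 were in protein-coding genes, 10 in other RNA genes and 21 in no gene. The first 8 by fold enrichment were all in genes. HBA2, one of the adult α-globin genes, had 75 tags over a background of 2.37 and a fold enrichment of 22.5. HBB, the adult β-globin gene, had peaks of 101 and 79 tags over backgrounds of 3.62 and 3.82, with fold enrichments of 22.1 and 16.6. HBA1, the near-identical neighbour of HBA2, had 62 tags, a background of 2.80 and a fold enrichment of 16.6. The peaks covered 66.2% of HBA2, 64.3% of HBA1, and 36.0% and 23.6% of HBB, between whose peaks 630 bp of the gene were free. Exon positions were not used here. Of the 10 globin genes of the list, 3 held a summit, where 8.85% of all protein-coding genes and 1.52% of those under 10 kb did. The list was chosen with earlier results of these data known. The other 7, HBD, HBG1, HBG2, HBE1, HBZ, HBM and HBQ1, held no summit, as did most protein-coding genes. K562 cells are known for expressing embryonic and fetal globins (HBE1, HBZ, HBG1, HBG2) and α-globin with little or no β-globin. A peak list holds no expression values, so the 4 globin peaks, 2 of them in HBB, cannot be set against this. Which cells or molecules the globin tags came from was not tested.

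All 5 genes of the list of 7SL, 7SK, RNase P and RNase MRP RNAs held a summit, where 4.66% of all 56752 annotated genes did. The list was chosen with earlier results of these data known, so this contrast is a description and no test. RN7SL1, the RNA of the signal recognition particle, had 108 tags over a background of 5.09 and a fold enrichment of 17.9. RN7SL2, a second copy, had 75 tags over 6.34, or 10.4. The related RN7SL3 had 15 tags over 2.33, or 4.80. RN7SK, which holds the elongation factor P-TEFb inactive, had 92 tags over 4.88, or 15.8. RPPH1, the RNA of RNase P, which trims transfer RNA precursors, had 39 tags over 4.66, or 7.06. RMRP, the RNA of RNase MRP, which acts on ribosomal RNA precursors, had 34 tags over 5.51, or 5.37. All 6 genes were about the size of a peak, and the peaks of 5 of them, without RN7SL3, covered 88.3% to 100% of the gene. RN7SL1, RN7SL2 and RN7SL3 share most of their sequence, which leaves the split of tags among them uncertain.

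Few of the other short RNA genes held a summit, where 4.66% of all annotated genes did. Such genes cover little sequence, 0.00442% of the bases for snoRNA genes, so that counts of 0 say little. The tRNA genes had 0.107% of the summits on 0.00115% of the bases, and the microRNA genes 0.0307% on 0.00496%. None of the 18 major spliceosomal snRNA genes (U1, U2, U4, U5 and U6), of the 5 minor spliceosomal and U7 snRNA genes and of the 8 vault and Y RNA genes held a summit. No snoRNA gene of 1150 held one, 7 of 439 tRNA genes did, with 23 tags at most (TRG-CCC1-1), and so did 2 of 1793 microRNA genes. The second was MIR3648-1, which lies in the transcribed spacer of the ribosomal RNA unit RNA45SN2, with 45 tags over a background of 2.12 and a fold enrichment of 14.7. RNA45SN2, the precursor of the ribosomal RNAs, held 4 summits of 45, 112, 52 and 78 tags in its order along the chromosome, and the last 2 lay in its RNA28SN2 part. Their fold enrichments were 14.7, 5.91, 5.27 and 8.63 over backgrounds of 2.12 to 18.1. RNA45SN3, a further copy, had 45 tags and a fold enrichment of 7.15. The copies of the unit are near-identical, so which copy the tags came from is uncertain.

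Of 12 genes with abundant messenger RNA, 5 held a summit, where 8.85% of all protein-coding genes did, at lower fold enrichments than the globins. The lists of this paragraph were likewise chosen with earlier results of these data known. FTL, the ferritin light chain, had 30 tags over 6.36 and a fold enrichment of 4.21. EEF2, an elongation factor, had 11 tags and 3.29. The actin genes ACTG1 and ACTB had 17 and 30 tags with 2.60 and 2.12, and EEF1A1 had 12 tags and 2.10. FTL alone of these had a −log10 q of at least 5 (6.60). FTH1, GAPDH, TUBA1B, TUBA1A, TPT1, ENO1 and B2M held no summit. Of 9 nuclear lncRNA and snoRNA host genes, 2 did, where 4.50% of all lncRNA genes did. MALAT1, a lncRNA of nuclear speckles, had 19 tags over 6.15, or 2.80, at a summit that lies also in its antisense gene TALAM1. SNHG3, a snoRNA host, had 2 summits of 13 and 11 tags with 3.17 and 2.60.

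Of the gene-free peaks with a fold enrichment of at least 5, the highest by fold enrichment was at chr5:47450705-47450986, with 23 tags over 1.70 and a fold enrichment of 8.90. It was followed by chr10:40198819-40199130 with 36 tags and 8.04 and by chr1:124475570-124475839 with 19 tags and 7.46. The one with the most tags was chr10:133688265-133688593, near the end of the chromosome, with 113 tags over 17.8 and 6.06. When only peaks with a background under 5 tags were ranked by pileup, the first 7 were all in the genes already named, namely HBB, RN7SK, HBA2, HBA1, MIR3648-1 and RPPH1, of which HBB had 2. The following 6 were gene-free.

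The share of summits in promoters was near the share of bases that the promoter windows cover. Windows from 250 bases before to 50 after the start were available for 26246 protein-coding and lncRNA genes, 33725 in all. A summit lay in one for 19 peaks, 0.291% (0.187% to 0.454%), while the windows cover 0.318% of the bases. None of these 19 had a −log10 q of at least 5. At AHCYL2 the summit was 244 bases before the start, over a background of 3.60, and at UGT3A2 it was 62 bases before. The other protein-coding genes with a summit in such a window, among them KCNJ5, PDIA2, PTK7 and TFPI2, had 7 to 15 tags. The 20 windows with a summit had a median GC content of 54.2%, with a range over the 20 windows from 31.3% to 75.3%, and all windows had one of 58.7%.

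A summit lay in 2643 of the 56752 genes, and 588 genes (1.04%) held 2 or more. These 588 genes shared 1769 summits, 27.1% of all. They were 429 protein-coding genes, 139 lncRNA genes and 20 of other classes. Exactly 2 summits were found in 347 of them, 5 or more in 72 and 10 or more in 17. Their median length was 261 kb, against 62.3 kb for genes with 1 summit and 5.01 kb for genes with none. In 579 of the 588 (98.5%) no peak had a −log10 q of at least 5. Such peaks were rare in the whole list, 1.67% of all, and lay in 25 of the 2643 genes with a summit.

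The share of protein-coding genes with a summit rose with length, while the density fell up to 50 to 200 kb and rose in longer genes. Of those under 10 kb 1.52% had a summit, of those of 50 to 200 kb 14.1%, of those of 200 to 500 kb 38.2%, and of those of 1000 kb and over 77.3% (51 of 66). Summits per 100 kb were 0.339 in the shortest class, 0.210 in that of 10 to 50 kb and 0.178 in that of 50 to 200 kb. They were 0.227 at 200 to 500 kb, 0.228 at 500 to 1000 kb and 0.336 in the longest class. The mean over all bases was 0.227. Overlapping genes were each counted for a shared summit.

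**Figure D4:**
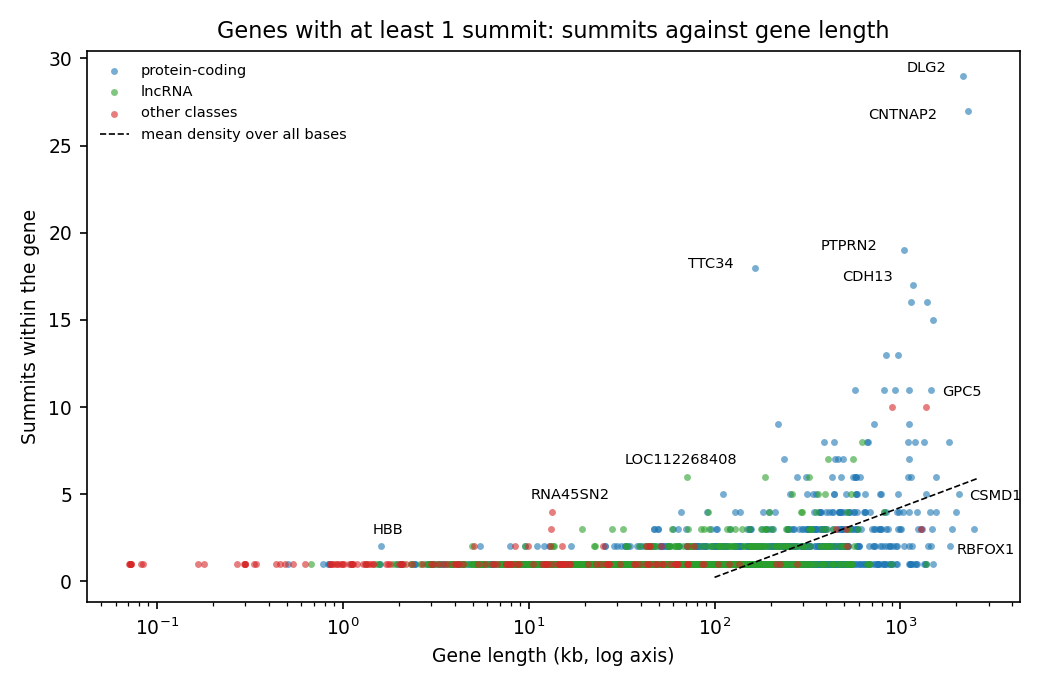
Number of summits in each gene with at least 1 summit against its length in kb (log axis), coloured by class, with the mean density over all bases as a dashed line. DLG2 and CNTNAP2 lead with 29 and 27 summits at over 2000 kb, while TTC34 reaches 18 at 165 kb.

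The genes with the most summits were mainly very long genes known for roles in neurons. DLG2, a scaffold protein of synapses, held 29 summits over 2173 kb, with 6 to 10 tags each. CNTNAP2, a neurexin-like adhesion protein, held 27 over 2304 kb, of which 21 had 8 tags or fewer and 1 had 27 tags over a background of 11.8. PTPRN2, a phosphatase-like protein of secretory vesicles, held 19 with 6 to 13 tags, and CDH13, a cadherin, held 17 with 7 to 13. DPP6, a subunit of potassium channels, and GALNT13, a glycosyltransferase, held 16 each. They were followed by AGBL4, a tubulin-modifying carboxypeptidase, with 15, and by the scaffold DLGAP2 and the adhesion molecule DSCAM with 13 each. In these 9 genes no peak had a −log10 q of at least 5, and the median pileup was 6 to 9 tags. The median distance between neighbouring summits was 42.0 kb in DLG2, 68.2 kb in CNTNAP2 and 35.5 kb in PTPRN2.

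Length alone did not order the long genes. Of the 69 genes of 1 Mb or more, 15 held no summit, 13 held 1 and 41 held 2 or more, with a median of 0.180 per 100 kb. PTPRN2 had 1.81, CDH13 1.45, DPP6 1.40 and DLG2 1.33 per 100 kb. PTPRD, MACROD2, ROBO2 and NRXN3 were among those that held none. GPC5, a heparan sulfate proteoglycan gene on chromosome 13, held 11, and its neighbour GPC6 held none. In GPC5, 10 of the 11 summits had a background of 5 tags or more, up to 10.2, and their pileups were 15 to 23 tags.

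TTC34, a gene of little known function on chromosome 1, was the exception among the 10 genes with the most summits. Its 18 summits lay within 108 kb of a gene of 165 kb, 10.9 per 100 kb, with a median spacing of 0.868 kb. They had 10 to 76 tags over backgrounds of 1.91 to 28.1 and fold enrichments of 1.85 to 4.47. The 2 highest had 76 and 75 tags over 23.6 and 28.1, and 3 summits had a −log10 q of at least 5.

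At least 2 peaks with a −log10 q of 5 or more were found in 8 genes. By background they were of 2 kinds. In LOC112268408, ROCK1P1, DUX4, CDC27P10 and TTC34 the highest background was 28.1 to 178 tags and no fold enrichment exceeded 4.47. In HBB, RNA45SN2 and RNA28SN2 the highest background was 3.82 to 18.1 tags and the fold enrichments were 5.27 to 22.1. Among the 21 genes under 20 kb with 2 or more summits, HBB was the shortest, with 1.61 kb. Others were SNHG3, HLA-DRB1, DLX6 and ACP2, whose summits had 6 to 14 tags.

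Peaks were unevenly spread among chromosomes. There were 4.54 peaks per Mb on chromosome 21, 4.09 on 16, 3.90 on 7 and 3.77 on 11, and 0.893 on chromosome 3, 0.861 on 14, 0.647 on 15 and 0.542 on 13. Without the peaks of high background these 4 stayed the highest, with chromosomes 21, 7, 16 and 11 at 3.88, 3.85, 3.77 and 3.74. The genes with 2 or more summits followed: of the protein-coding genes of 200 kb or more, 27 of 66 on chromosome 11 (40.9%) and 34 of 93 on chromosome 7 (36.6%) held at least 2, against 7 of 113 on chromosome 3 (6.19%) and 0 of 35 on chromosome 14. Over all chromosomes it was 288 of 1340 (21.5%). In windows of 1 Mb the mean was 2.26 peaks with a variance of 8.34, and 900 of 2886 windows (31.2%) held none. Gaps in the reference were counted in the lengths of the chromosomes and in the windows.

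**Figure D5:**
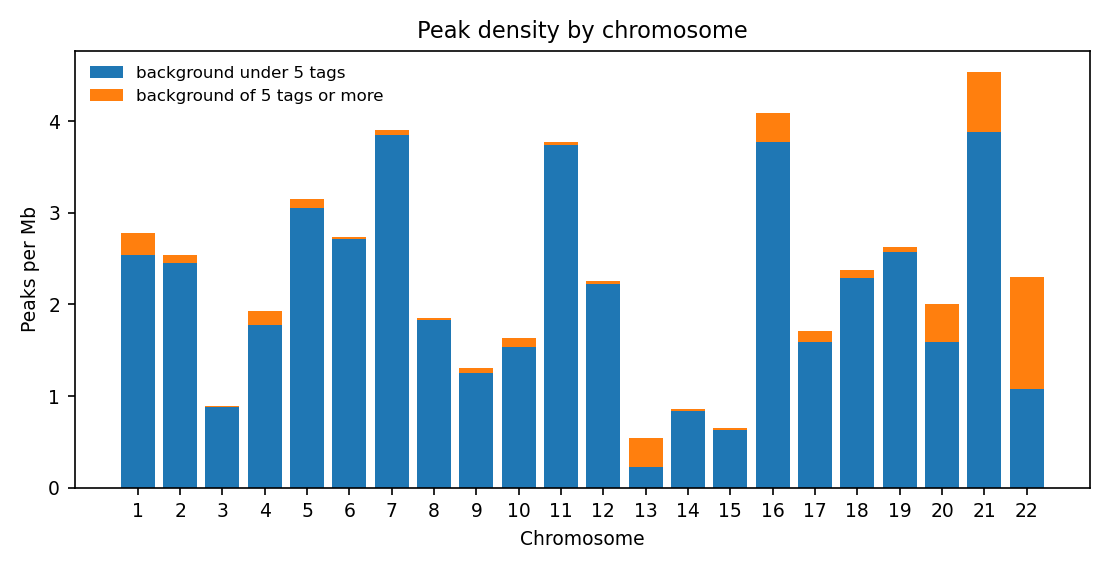
Peaks per Mb on chromosomes 1 to 22, divided into those with a background under 5 tags and those with 5 tags or more. Chromosomes 21, 16, 7 and 11 are highest and chromosome 13 lowest, and chromosomes 13 and 22 are the only ones where peaks of high background are the larger share.

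On chromosomes 13 and 22 most peaks lay where the input itself was high, in 58.1% and 53.0% of cases. On chromosome 13 all 36 such peaks were between 80 and 93 Mb, and 31 of them between 89 and 93 Mb, in a stretch that includes GPC5 and LINC00379, with 15 to 30 tags over 6.15 to 11.8. On chromosome 22 the peaks between 22 and 24 Mb, 21 in all, had 18 to 31 tags over 7.25 to 15.4. They included the 10 in the immunoglobulin locus IGL and the 4 in BCR, whose tags were 22 to 26 over 10.2 to 12.4. BCR is the gene that is fused to ABL1 in this leukemia, and K562 cells are known to carry the fusion in many copies. None of these 21 or 31 peaks had a −log10 q of at least 5, and the median fold enrichment was 2.02 in both stretches. The part of the input level in these calls was not tested.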

How the data were processed

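ChIP-seq was performed with an HA antibody on K562 cells, with 1 ChIP library and 1 input for the label WT. According to the submitters' processing notes, BWA 0.7.12 and MACS2 2.1.0 were used. Per the file headers, the authors ran MACS 2.1.0.20150420 on reads that mapped to a single place, without duplicates (22257947 ChIP and 24567954 input tags), with tags extended to 234 bp, no fragment model, a p cutoff of 0.005 and splitting at summits. The deposited pileup is a signal, the count of extended tags over the summit, without scaling. The fold enrichment the authors deposited is a ratio of pileup to background, with 1 added to both, and the background was computed back from it. The p-value and the q-value of each peak were deposited as −log10. The header states that q-values would not be computed, but values are present and were used as given. Deposited starts, ends and lengths are in bp. Removal of duplicates caps the pileup, and unique mapping can remove tags of repeats and gene copies.

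The files name no genome build. Their chromosome and contig names are those of GRCh38, and the peaks over short RNA genes matched the RefSeq positions closely, so the RefSeq gene table of GRCh38.p14 was used. Every annotated gene at a summit was counted, and the shortest gave the class. The table holds no exons, which were not used here. Shares have Wilson intervals and medians binomial order-statistic intervals. With 1 library no test was made. The genes named were those at the 25 highest pileups, the 3 highest of each class, the 10 with the most summits and the members of 7 lists. The members and the lists were chosen with earlier results of these data known, and genes outside that rule (in promoters, among long or short genes, on chromosomes 13 and 22) were chosen after their values were seen. Alternatives were stricter limits, other definitions of overlap and class, and other rankings. The steps were tested on simulated data. Calculations were run in Python 3.11.15 (scipy 1.17.1, numpy 2.4.6, pandas 2.3.3) and plotted with matplotlib 3.10.9.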

Additional observations from a re-analysis of the deposited data

How the results depend on the processing

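No paired analysis was possible because each label has 1 ChIP library. Of 55 values under 13 alternatives, 26 stayed within their interval or, for counts, within 1.5 times, among them all those with 1 entry per region, any base of the peak, 500 bp merging, and the top 50 or 200. With a −log10 q of at least 5, there were 109 peaks with a median pileup of 113 tags and length of 312 bp, 28.4% in a gene, 10.1% in protein-coding, 2.75% in lncRNA and 15.6% in other genes, 25 genes with a summit and 8 with 2 or more. With a fold enrichment of at least 5, the values were 36 peaks, 29.5 tags, 309 bp, 41.7%, 13.9%, 0%, 27.8%, 16 genes and 3 genes. Without pseudogenes, 53.0% of summits were in a gene and 0.720% in other classes. Taking the longest gene gave 39.7% protein-coding, 12.6% lncRNA and 2.25% other classes. The gene-free and protein-coding shares of the top 100 were 55.0% and 26.0% by fold enrichment, 71.0% and 10.0% by −log10 p, and 64.0% and 24.0% among peaks with a background under 5 tags, an alternative chosen after seeing the data, which left 568 genes with 2 or more. Most peaks rest on 6 to 10 tags, which limits the precision of each.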
